A study of Homo sapiens with 6 samples.

Results

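The cytosolic chaperonin CCT, also called TRiC, is a folding chamber whose subunits are encoded by TCP1, CCT2, CCT3, CCT4, CCT5, CCT6A, CCT7 and CCT8. These 8 genes were taken by symbol from a table of 18780 genes, and all 8 were in it. The set was selected on the difference in log2 values between treated and control cells, which was known when it was proposed, so that difference is given below as a description without a test. The samples were PC-3 cells, a human line from a prostate cancer, grown as a culture in medium with serum. They were exposed for 24 h to 2.5 µM trans-Gnetin H (TGH), a resveratrol trimer, in 3 libraries, and to DMSO, the vehicle, in another 3. The study's title raises the question of what depriving advanced prostate cancer cells of glucose with this compound does. Nothing states whether the libraries of a group came from separate cultures, so the spread between them may be technical.

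CCT is built from a pair of stacked rings, and each ring holds every subunit once. Unfolded proteins enter the open ring. A cycle of ATP binding and hydrolysis then closes a built-in lid over the chamber and later releases the folded protein. Actin and tubulin depend on it, and so do many proteins with WD40 repeats, including activators of the anaphase-promoting complex and G protein beta subunits. Because the subunits occupy fixed places in the ring, the complex needs all of them together.

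The values are TPM, an abundance unit corrected for transcript length, so that levels of different genes can be compared, and were deposited as log2(TPM + 1). Every subunit was abundant in both groups. In DMSO the highest was CCT3 at 351 ± 4.2 TPM (SD, n = 3) and the lowest was TCP1 at 165 ± 2.8 TPM. All 8 were lower with TGH, by a median of 0.40 on the log2(TPM + 1) scale, and in none of them did the groups overlap. The range of these differences ran from -0.15 for CCT8 to -0.44 for CCT5, which are levels 9.7% and 26.1% lower on that scale. Of the 12018 genes averaging 1 TPM or more, 30.8% were lower with TGH without overlap between the groups, and 41.8% of the 844 genes averaging 100 TPM or more were. The median difference of all 12018 genes was 0.02.

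**Figure D1:**
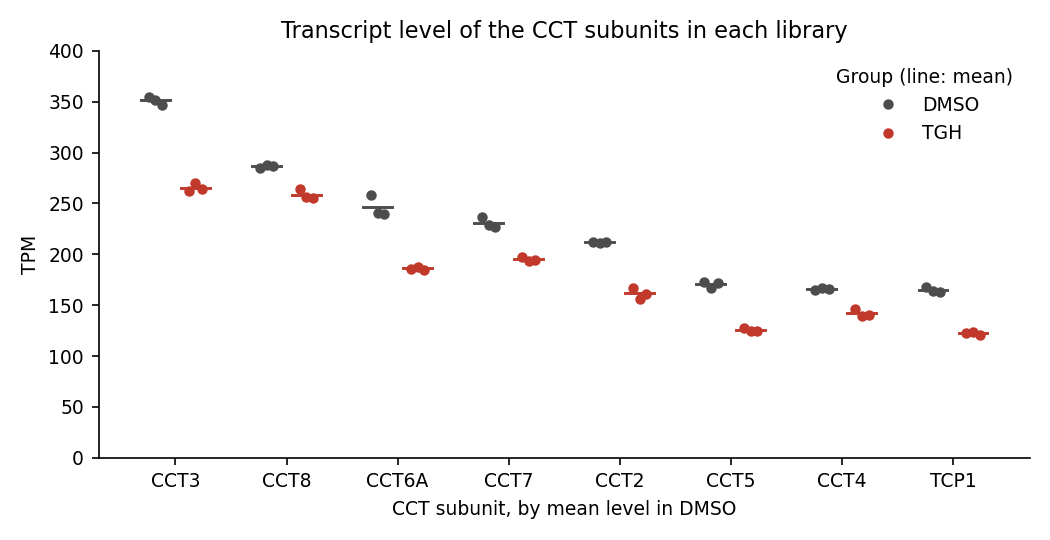
TPM (linear axis) of each CCT subunit in the 3 DMSO and 3 TGH libraries, one point per library, with the group mean as a line. Each subunit has its TGH points below its DMSO points, from CCT3 at 351 against 266 TPM to TCP1 at 165 against 123 TPM.

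The subunits can be ordered by what is known of how they bind ATP. TCP1, CCT2, CCT4 and CCT5 form the side of the ring that binds ATP tightly and does most of the work of closing the lid. TCP1, the first subunit to be described, was at 168, 164 and 163 TPM in DMSO replicates 1 to 3 and at 123, 124 and 121 TPM in TGH replicates 1 to 3. The difference was -0.42 (SE 0.021). CCT5 was at 173, 167 and 171 TPM in DMSO and at 128, 124.5 and 124 TPM with TGH. Its difference of -0.44 (SE 0.023) was the largest of the 8, and the lowest DMSO library lay 38.7 TPM above the highest TGH library. CCT2 was at 212.3, 211.5 and 211.6 TPM in DMSO, the closest agreement of any subunit, and at 167, 156 and 161 TPM with TGH, and the difference was -0.39 (SE 0.027). CCT4 differed less than the other three: it was at 165, 167 and 166 TPM in DMSO and at 146, 139.8 and 139.9 TPM with TGH, and the difference was -0.23 (SE 0.024). TGH replicate 1 was the highest of the treated libraries in CCT2, CCT4 and CCT5.

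CCT3, CCT6A, CCT7 and CCT8 form the side that binds ATP weakly. CCT3, the most abundant subunit transcript, was at 355, 352 and 347 TPM in DMSO and at 262, 270.2 and 264 TPM with TGH, and the difference was -0.40 (SE 0.019). CCT6A was at 259, 240.5 and 240 TPM in DMSO and at 186, 187.5 and 185 TPM with TGH, also a difference of -0.40 (SE 0.032). Here DMSO replicate 1 stood above the other controls, and without it the difference was -0.37. CCT7 was at 237, 228.5 and 227 TPM in DMSO and at 198, 194 and 194 TPM with TGH, and the difference was -0.24 (SE 0.023). CCT8 was at 285, 287 and 287 TPM in DMSO and at 264, 256 and 255 TPM with TGH. Its difference of -0.15 (SE 0.019) was the smallest of the 8, although its groups lay apart too. The median difference was -0.41 over the tight-binding side and -0.32 over the weak-binding side, and both sides held members with large and small differences.

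**Figure D2:**
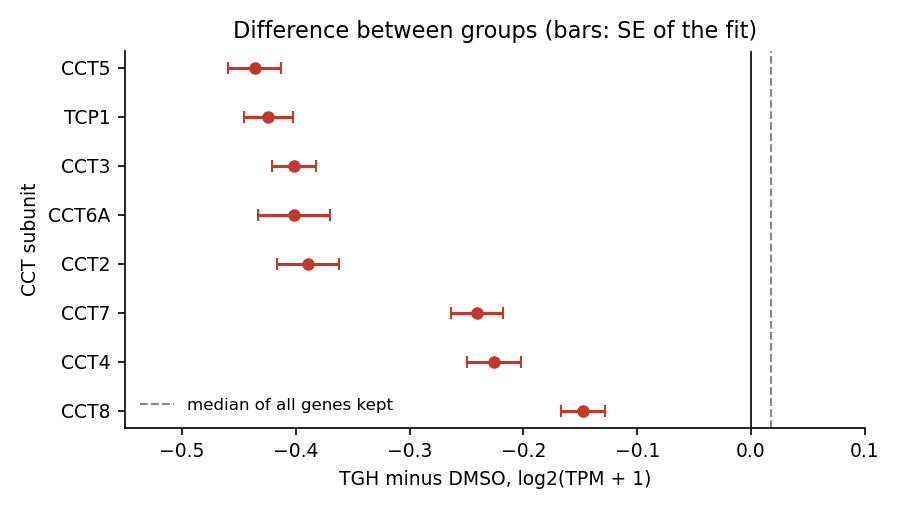
Difference between TGH and DMSO for each subunit on the log2(TPM + 1) scale, with the standard error of the fit as bars and the median of all 12018 genes as a dashed line. CCT5, TCP1, CCT3, CCT6A and CCT2 lie between -0.44 and -0.39, CCT7 and CCT4 at -0.24 and -0.23, and CCT8 at -0.15.

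Ordered by difference, CCT5, TCP1, CCT3, CCT6A and CCT2 followed each other with gaps of at most 0.02. The next gap, from CCT2 to CCT7, was 0.15, CCT7 and CCT4 were 0.01 apart, and from CCT4 to CCT8 the gap was 0.08. These gaps were not tested. A difference at or below that of CCT8 was found in 26.3% of all 12018 genes, and one at or below the median of the 8 subunits in 6.66% of them. Among the 844 genes averaging 100 TPM or more the latter share was 12.8%.

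The summed level of the 8 subunits was 1854, 1817 and 1812 TPM in DMSO replicates 1 to 3 and 1474, 1452 and 1445 TPM in TGH replicates 1 to 3. The mean was 20.3% lower with TGH, and 19.6% lower when DMSO replicate 3 was the only control. The 8 genes made up 0.361% ± 0.0040 of the TPM listed per library in DMSO and 0.283% ± 0.0042 with TGH (SD, n = 3 each). In these bulk samples, fewer cells that express a gene and less of its RNA per cell cannot be told apart.

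Because the differences were unequal, the composition of the subunit transcripts shifted. The share of CCT8 in the summed TPM was 15.4%, 15.8% and 15.8% in DMSO and 17.9%, 17.6% and 17.7% with TGH, 2.07 percentage points more. CCT7 went from 12.6% to 13.4% and CCT4 from 9.09% to 9.74%. The share of CCT3 was 19.1%, 19.4% and 19.1% in DMSO and 17.8%, 18.6% and 18.3% with TGH, 0.98 points less. TCP1, CCT2, CCT5 and CCT6A each had 0.51 to 0.70 points less. The groups did not overlap in the share of any subunit, which describes the same values the set was selected on and was not tested. Over all 12018 genes, the groups did not overlap in level for 30.8% (lower with TGH) and 33.6% (higher). Shares within a library do not depend on how libraries are scaled against each other, but the 8 shares sum to a whole, so a larger share of one lowers the others.

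**Figure D3:**
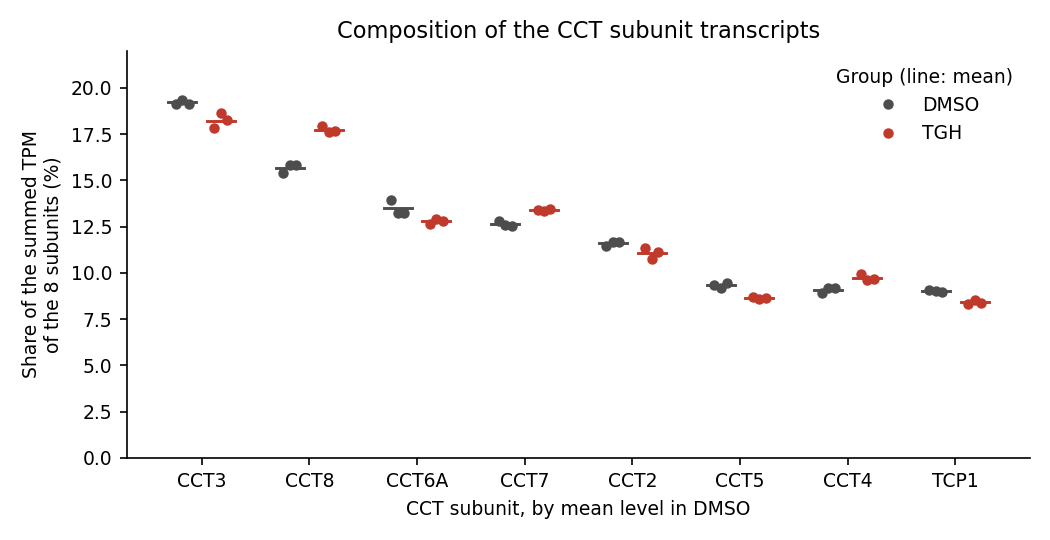
Share of each subunit in the summed TPM of the 8 subunits, in percent, one point per library, with the group mean as a line. CCT8, CCT7 and CCT4 have larger shares with TGH, led by CCT8 at 17.7% against 15.7%, and the other subunits have smaller shares.

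The order of levels changed accordingly. In DMSO it was CCT3, CCT8, CCT6A, CCT7, CCT2, CCT5, CCT4 and TCP1, and the libraries of neighbours overlapped only between CCT5 and CCT4 and between CCT4 and TCP1. With TGH it was CCT3, CCT8, CCT7, CCT6A, CCT2, CCT4, CCT5 and TCP1. CCT3 and CCT8 then overlapped, at 266 ± 4.1 and 258.5 ± 4.9 TPM (SD, n = 3), and no other neighbours did. The highest subunit was 2.14 ± 0.0091 times the lowest in DMSO and 2.17 ± 0.016 times with TGH.

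Promoter sequences are shown for 4 subunits, since the members lay on the same side of 0 by unequal amounts: TCP1, CCT2 and CCT3 from the group with large differences, and CCT8, the subunit with the smallest. RefSeq windows (GRCh38.p14, 250 bases before to 50 after a start site) were found for 7 of the 8 genes, 9 windows in all. The 250 bases before the start site are printed for TCP1 (chr6:159789603-159789852, minus strand), CCT2 (chr12:69585209-69585458, plus strand), CCT3 (chr1:156338293-156338542, minus strand) and CCT8 (chr21:29073649-29073898, minus strand), each 5′ to 3′ in the direction of transcription. Capitals mark letters that match a motif named in the next paragraph.
TCP1: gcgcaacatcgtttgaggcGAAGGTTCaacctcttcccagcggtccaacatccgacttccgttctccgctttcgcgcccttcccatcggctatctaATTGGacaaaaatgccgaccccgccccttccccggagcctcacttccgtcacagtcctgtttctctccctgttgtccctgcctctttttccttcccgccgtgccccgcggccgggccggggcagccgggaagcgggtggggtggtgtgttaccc
CCT2: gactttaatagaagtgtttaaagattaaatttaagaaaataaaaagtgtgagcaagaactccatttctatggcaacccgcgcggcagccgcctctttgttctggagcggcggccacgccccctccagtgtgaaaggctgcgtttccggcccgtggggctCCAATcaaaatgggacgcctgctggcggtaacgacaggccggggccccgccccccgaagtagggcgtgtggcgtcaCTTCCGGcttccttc
CCT3: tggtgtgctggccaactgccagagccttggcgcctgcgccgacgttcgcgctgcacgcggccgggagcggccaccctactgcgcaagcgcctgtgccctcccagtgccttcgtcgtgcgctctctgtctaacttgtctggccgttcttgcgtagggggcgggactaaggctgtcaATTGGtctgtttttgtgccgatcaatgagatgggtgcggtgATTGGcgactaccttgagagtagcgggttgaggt
CCT8: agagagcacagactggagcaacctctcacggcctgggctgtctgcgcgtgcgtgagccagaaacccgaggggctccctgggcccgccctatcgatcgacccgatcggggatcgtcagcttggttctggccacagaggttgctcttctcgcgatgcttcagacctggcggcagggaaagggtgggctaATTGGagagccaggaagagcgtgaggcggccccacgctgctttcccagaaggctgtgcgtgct

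Both strands were searched for the paired heat shock unit (GAANNTTC or TTCNNGAA), an ETS core (CCGGAAG), the CCAAT box (CCAAT) and the E-box read by MYC (CACGTG). In the sequences printed, TCP1 holds a heat shock unit that begins 231 bases before the start site and a reversed CCAAT box 154 bases before it. CCT2 holds a CCAAT box 91 bases and a reversed ETS core 15 bases before the start site. CCT3 holds reversed CCAAT boxes at 75 and 34 bases, and CCT8 holds one at 63 bases. Over all 9 windows, the heat shock unit was in 3 (TCP1, 1 of the windows of CCT2, and 1 of CCT4, where it lies after the start site), against 13.5% of 35116 windows of this length in the table. CCAAT was in 4 windows, against 34.6% of all, and the ETS core in 1, against 10.3%. The E-box was in 0 windows, against 7.26% of all. The windows of CCT7 and of CCT5, the subunit with the largest difference, are not printed and held none of these motifs. No 2 of the motifs found overlapped each other. With 9 windows these counts describe the letters present, and say nothing of a factor being bound.

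The genes that work with CCT were tested in the fit over all 12018 genes, in which 26.3% were called lower and 28.9% higher (limma with Benjamini-Hochberg adjustment, adjusted p under 0.05; the adjusted p-values below are from this fit). Of 31 partner genes measured, 16 fell and 3 rose, with a median difference of -0.12. Most of these falls were in the HSP70 and HSP90 system, in which HSP70 hands unfolded proteins on to CCT. All 9 genes listed for this system, which are a chosen part of it, fell, with a median of -0.49. HSP90AB1, the constitutive HSP90 of the cytosol, went from 1005 ± 7.5 to 635 ± 1.4 TPM, a difference of -0.66 (SE 0.013, adjusted p = 6.0e-07). HSPA8, the constitutive HSP70, went from 1123 ± 2.8 to 769 ± 7.7 TPM, and HSP90AA1, the inducible HSP90, from 907 ± 15 to 507 ± 10.1 TPM (both adjusted p = 1.2e-06). STIP1, which links HSP70 to HSP90, fell by 0.49 (SE 0.020, adjusted p = 8.3e-06). Outside this system 7 of 22 partner genes fell (31.8%) and 3 rose, with a median of -0.07, against 26.3% and 28.9% of all genes.

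Prefoldin is the co-chaperone that delivers newly made actin and tubulin to CCT, and its 6 subunit genes went both ways. VBP1 fell from 74.3 ± 1.9 to 65.3 ± 2.9 TPM, a difference of -0.19 (SE 0.038, adjusted p = 0.0064). PFDN5 rose from 253.5 ± 12 to 285 ± 1.8 TPM, a difference of 0.17 (SE 0.035, adjusted p = 0.00599). PFDN1 fell by 0.11 (SE 0.037, adjusted p = 0.0418), a call lost under 8 of 17 alternatives, where its adjusted p ran from 0.0178 to 0.159. PFDN2 (0.06), PFDN4 (-0.11) and PFDN6 (-0.08) were not called, although PFDN2 was called higher under 1 of 17 alternatives and PFDN4 lower under 2. In the prefoldin-like module around URI1, PDRG1 fell from 51.9 ± 1.9 to 42.2 ± 0.54 TPM (-0.29, SE 0.033, adjusted p = 4.5e-04), while URI1 (0.06) and UXT (-0.10) were not called. UXT was called lower under 4 of 17 alternatives.

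Phosducin-like proteins bind CCT and modulate its folding cycle. TXNDC9 fell from 37.0 ± 0.63 to 33.2 ± 1.4 TPM, a difference of -0.15 (SE 0.036, adjusted p = 0.011). PDCL, which helps assemble G protein beta and gamma subunits, had -0.12 (SE 0.043, adjusted p = 0.0507) and was called lower under 4 of 17 alternatives. PDCL3 had -0.04 and was not called. PDCL2 was too low to be kept, at no more than 0.209 TPM in any library. Among the chaperonin-like proteins that assemble the BBSome of the cilium with CCT, BBS10 rose from 4.74 ± 0.35 to 7.19 ± 0.32 TPM, a difference of 0.51 (SE 0.060, adjusted p = 5.1e-04) that was 0.32 with a pseudocount of 5. MKKS fell by 0.12 (SE 0.035, adjusted p = 0.0264), a call lost under 4 of 17 alternatives, with an adjusted p of up to 0.0844. BBS12 had 0.16 and was not called, though it was under 2 of 16 alternatives.

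Tubulin cofactors take tubulin over from CCT and join alpha to beta subunits. The list measured here held 7 genes, not all of which have this role, TBCEL among the exceptions. Of these 7, 2 fell (28.6%, against 26.3% of all genes) and 1 rose (14.3%, against 28.9%). TBCD fell from 23.3 ± 0.76 to 19.2 ± 0.053 TPM (-0.27, SE 0.033, adjusted p = 6.5e-04). ARL2, the small GTPase that works with TBCD, rose from 57.8 ± 2.2 to 73.1 ± 0.95 TPM (0.33, SE 0.032, adjusted p = 2.2e-04). TBCA fell by 0.13 (SE 0.042, adjusted p = 0.0409), a call lost under 8 of 17 alternatives with an adjusted p of up to 0.378. The other 4 were not called, among them TBCEL at 0.09.

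Of 33 genes for proteins known to be folded or assembled by CCT, 17 fell (51.5%, against 26.3% of all genes) and 6 rose (18.2%, against 28.9%), with a median difference of -0.18, against 0.02. Actin and tubulin, its main clients, did not share a direction. ACTB had 2243 ± 55 TPM in controls and 2227 ± 23 TPM in treated cells, with a difference of -0.01 (SE 0.020) that was not called (adjusted p = 0.702). ACTG1, the other cytoplasmic actin, rose from 1346 ± 4.5 to 1504 ± 22 TPM, up by 0.16 (SE 0.015, adjusted p = 1.8e-04). Under quantile normalization that call was lost (0.07, adjusted p = 0.131, against 4.8e-05 at the lowest over 17 alternatives). ACTG2, a smooth muscle actin, rose from 1.38 ± 0.23 to 3.34 ± 0.19 TPM (0.87, SE 0.085, adjusted p = 2.4e-04). At this low level the difference was 1.23 with a pseudocount of 0.1 and 0.39 with one of 5. Of 11 tubulin genes kept, 7 fell (63.6%, against 26.3% of all genes), 0 rose (against 28.9%) and 4 were not called, with a median of -0.27. TUBB went from 1045 ± 17 to 739 ± 8.0 TPM (-0.50, SE 0.017, adjusted p = 4.1e-06) and TUBA1B from 1375 ± 40 to 980.5 ± 23 TPM (-0.49, SE 0.027, adjusted p = 2.1e-05). TUBB4B fell by 0.47 and TUBA1C by 0.44. Actin and tubulin genes each include near-identical copies, so reads may be split between them.

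**Figure D4:**
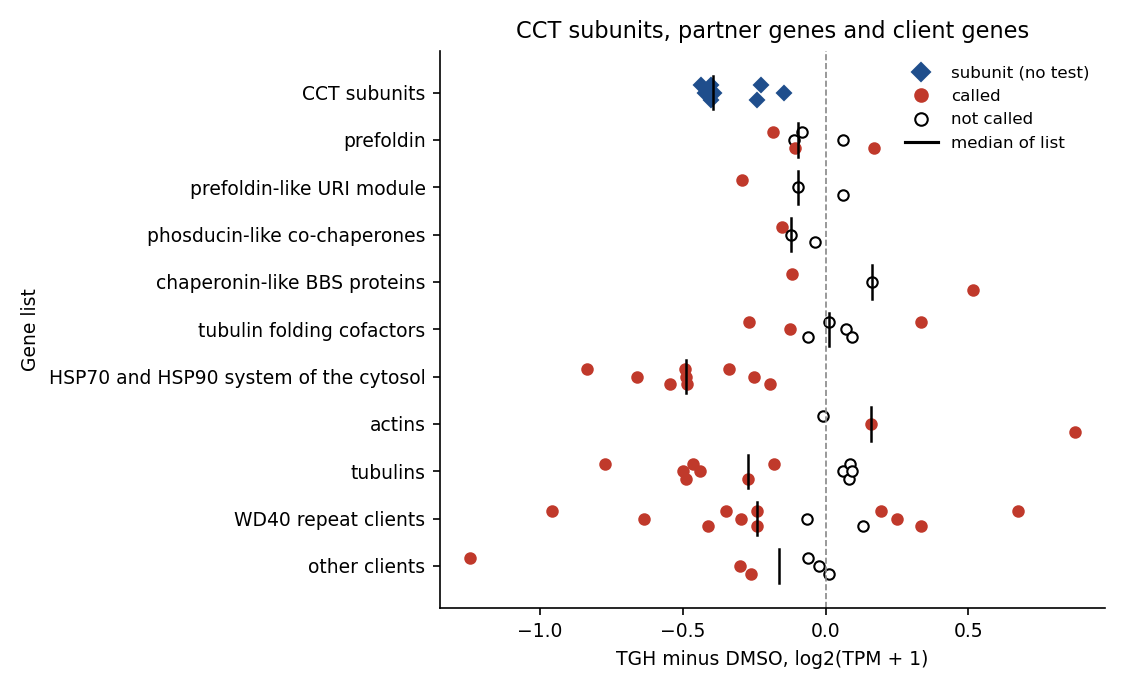
Difference between TGH and DMSO on the log2(TPM + 1) scale for the CCT subunits (diamonds, no test) and for the genes of each partner and client list (circles, filled where called), with each list's median as a bar. The HSP70 and HSP90 genes lie wholly below 0 with a median of -0.49, and the subunits have a median of -0.40. Prefoldin genes lie on both sides of 0. Of the actin genes, ACTB lies at -0.01 and was not called, and the others lie above 0.

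Among 13 genes of WD40 repeat clients 7 fell (53.8%, against 26.3% of all genes) and 4 rose (30.8%, against 28.9%). CDC20, an activator of the anaphase-promoting complex, fell from 169.5 ± 6.8 to 86.6 ± 2.3 TPM, a difference of -0.96 (SE 0.035, adjusted p = 5.2e-06). GNB1, a G protein beta subunit, fell by 0.24 (SE 0.017, adjusted p = 6.1e-05). BBS2, a BBSome subunit, rose by 0.67 (SE 0.036, adjusted p = 2.0e-05) and GNB2L1, the ribosomal scaffold RACK1, by 0.19 (SE 0.013, adjusted p = 5.0e-05). Of 6 other clients kept 3 fell (50.0%, against 26.3% of all genes) and 3 were not called. PLK1, a kinase of mitosis, fell from 71.5 ± 1 to 29.6 ± 0.37 TPM (adjusted p = 6.3e-07). HDAC3, a histone deacetylase, fell by 0.26 (adjusted p = 0.00117), and CCNE1, cyclin E1, by 0.30 (adjusted p = 0.00314, and by 0.20 with a pseudocount of 5). VHL, the tumour suppressor, had -0.06 and was not called. STAT3, a gene PC-3 is known to have lost, had a listed value of 0 in 5 libraries and of 0.00293 TPM in TGH replicate 1; it was named after seeing these values.

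The mitochondrial chaperonin, the distant relative of CCT, fell as well: HSPD1 went from 524.5 ± 7.2 to 364 ± 6.4 TPM (-0.53, SE 0.020, adjusted p = 5.3e-06) and its lid HSPE1 from 263.5 ± 20 to 191 ± 2.9 TPM (-0.46, SE 0.050, adjusted p = 3.9e-04). HSF1, the heat shock factor that drives chaperone genes, rose from 59.4 ± 2.4 to 66.2 ± 1.7 TPM (0.15, SE 0.037, adjusted p = 0.0112), a call lost with DMSO replicate 3 as the only control (adjusted p = 0.0561, and from 0.00329 to that value over 17 alternatives). HSF2 had -0.02 and was not called. Of the relatives of CCT6A, CCT6B, a form known from testis, was at 0.277 to 0.427 TPM in DMSO and 0.457 to 0.728 TPM with TGH, too low to be kept. The pseudogenes CCT6P1 and CCT6P3 were at 3.17 ± 0.31 and 2.56 ± 0.68 TPM in DMSO against 2.86 ± 0.31 and 2.51 ± 0.27 TPM with TGH, and neither was called. They resemble CCT6A, so reads may be shared with it, and the values of all 3 are uncertain to that extent. CCT8L2 was listed at 0 in 5 of 6 libraries.

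The 5 genes whose profile over the 6 libraries was nearest to the mean profile of the 8 subunits, by Euclidean distance between centred log2(TPM + 1) values, were HNRNPK, an RNA-binding protein (distance 0.0261), SET, a histone chaperone (0.0291), PPAP2B, a lipid phosphatase (0.0330), EIF4A1, the helicase of translation initiation (0.0333), and H2AFV, a histone variant (0.0337). HNRNPK was at 229, 220.4 and 225 TPM in DMSO and at 180, 178.5 and 176.5 TPM with TGH, and the difference was -0.33 (SE 0.021). EIF4A1 was at 531 ± 3.3 and 415 ± 4.0 TPM (SD, n = 3), a difference of -0.36. The subunits themselves lay 0.09 (CCT2) to 0.23 (CCT8) from their mean profile. The 5 genes were picked as the nearest of all kept genes outside the subunits, so their smaller distances follow from that choice. With 2 groups, this distance mostly ranks genes by the size of their difference.

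The libraries differed in the number of genes listed at exactly 0, which was 3074 and 3185 in DMSO replicates 1 and 2 and from 1342 to 1530 in the other 4. No subunit was at 0 in any library. With DMSO replicate 3 as the only control, all 8 subunits were lower in every TGH library, with a median of -0.37. Of the markers fixed for an epithelial line and PC-3, which include the mesenchymal VIM, all 6 were kept and their summed level was 1664 to 1700 TPM in DMSO and 1278 to 1285 TPM with TGH, lower with TGH as the CCT subunits were. Most of that sum was KRT8 and KRT18, at 604 and 577.5 TPM in DMSO, which fell by 0.51 and 0.45. CD44, VIM and EPCAM fell by 0.41, 0.25 and 0.13, while CDH1 had 0.07 and was not called. Their part in the CCT values was not tested. Immune and endothelial markers had 0 genes kept of 4 and 3, at a summed level of at most 0.321 and 0.313 TPM in any library, and fibroblast markers had 1 of 5, at a summed level of 3.44 to 3.67 TPM in DMSO and 2.61 to 3 TPM with TGH.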

How the data were processed

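RNA of PC-3 cells was sequenced after ribosomal RNA depletion with a kit that keeps the strand, per the labels' protocols. The authors deposited log2(TPM + 1) values for 18780 gene symbols in 6 libraries. Since the lowest value is exactly 0, the offset was taken to be 1. The submitters' processing notes name hg19. Which aligner, quantifier and annotation were used is not given here. Listed TPM sum to 50.2% to 51.9% of a complete column, and TPM keeps no read total, so depth is unknown.

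Genes averaging 1 TPM or more were kept, and the log2 values were fitted with limma 3.58.1 in R 4.3.3 (trended moderated variances, two-sided, Benjamini-Hochberg adjustment over 12018 genes). The limma step was tested on simulated data with known changes in far fewer genes than were called here. That test does not show how many of the calls are right. The members, lists and tests were chosen with earlier results of these data known. Named genes were the members, all kept prefoldin, URI1-module, phosducin-like and BBS genes, the 4 smallest p of each other partner or client list, the paralogs, HSPD1, HSPE1, HSF1 and HSF2, and the 5 nearest profiles. The 17 alternatives were pseudocounts of 0.1 and 5, no filter or 5 TPM, median scaling, quantile normalization, other variance models, the replicate number as a block, zeros as missing, 1 control, and leaving out each library. Luminal prostate markers are not reported here. Promoters came from RefSeq (GRCh38.p14). Figures were drawn with matplotlib 3.10.9.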

Additional observations from a re-analysis of the deposited data

How the results depend on the processing

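All 8 subunits were lower with TGH without overlap between the groups under each of the 11 alternatives that changed their values, and the other 6 of the 17 left them as they were. The median difference was -0.43 under median scaling, -0.36 under quantile normalization and -0.37 with DMSO replicate 3 as the only control, and from -0.40 to -0.38 when single libraries were left out. The share of CCT8 was 1.91 to 2.15 points larger in every case run. Outside the subunits, 30 of 44 named genes were called, of which 25 kept the call under every alternative run and 5 lost it under at least 1. Of all 12018 genes, 55.2% were called. Part of the named genes were picked for their small p, so these counts do not describe the lists as a whole. Of the 14 uncalled genes 5 were called under at least 1. Partner genes called higher numbered 5, not 3, against DMSO replicate 3 alone; the cause was not tested.

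The differences that changed sign all belonged to genes that were not called. When single libraries were left out they ranged from -0.086 to 0.018 for PDCL3, -0.027 to 0.0077 for ACTB, -0.069 to 0.056 for HSF2 and -0.18 to 0.082 for CCT6P3, whose difference was also 0.34 against DMSO replicate 3 alone and 0.0018 with a pseudocount of 0.1. Whether same-numbered libraries belong together cannot be told from n = 3 per group. Same-numbered deviations correlated at 0.009, 0.054 and 0.228 for replicates 1, 2 and 3, the last being the largest value of any pair. Not every library correlated best with its own number. With the replicate number as a block, 6231 genes were called instead of 6635, with 20 partner and 22 client genes among them. In this balanced design the block cannot move the differences themselves. The unknown depth, and n = 3, limit what can be said of genes near 1 TPM.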
